A study of Homo sapiens with 8 samples.

Results

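The enzymes that hydroxylate and crosslink collagen were followed through SAS cells that received a negative control miRNA (NC), miR-874-3p, miR-210-3p or miR-629-3p by transfection. All gene probes that carried the name LOX, LOXL1, LOXL2, LOXL3, LOXL4, PLOD1, PLOD2, PLOD3, P4HA1 or P4HA2 were taken, which gave 10 genes of the 43317 names and 14 probes of the 58201 on the array. SAS is a human cell line from a squamous cell carcinoma of the tongue, and the paper describes the transfected cells as SAS/GFP, that is, SAS cells that carry a green fluorescent protein vector. Each group received 25 nM of its RNA and was represented by 2 arrays. The labels give 48 h from transfection to RNA extraction with QIAzol and a miRNeasy kit, whereas the methods give 24 h and an RNeasy kit. The control group also received a transfected RNA, and all groups came from a single cell line in culture. The study asked which genes respond to miRNAs that were linked to cisplatin resistance. Nothing in the labels says whether the 2 arrays of a group came from separate transfections, so p-values measure only the spread between these samples, which may be technical.

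Newly made procollagen chains are hydroxylated in the endoplasmic reticulum. Prolyl 4-hydroxylases modify proline so that the collagen helix is stable at body temperature, and lysyl hydroxylases modify lysine, which serves as an attachment site for sugars and as a source of crosslinks. Both enzyme families need iron, oxygen and 2-oxoglutarate. After secretion, lysyl oxidases, which carry copper, oxidise lysine and hydroxylysine side chains of collagen and elastin to reactive aldehydes that join neighbouring molecules. In carcinomas these enzymes are known for stiffening the matrix, and LOX, PLOD2, P4HA1 and P4HA2 are textbook targets of the hypoxia-inducible factor HIF-1.

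The transfected miRNAs are shown because their seeds (bases 2 to 8, in capitals) are the part that pairs with target transcripts. The 3 seeds differ from each other. The sequences are those of RefSeq on GRCh38.p14, written 5′ to 3′.
hsa-miR-629-3p (chr15:70079387-70079408, minus strand): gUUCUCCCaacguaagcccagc
hsa-miR-210-3p (chr11:568112-568133, minus strand): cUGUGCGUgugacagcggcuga
hsa-miR-874-3p (chr5:137647582-137647603, minus strand): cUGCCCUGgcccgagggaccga
The 7 bases complementary to each seed were looked for in the probes of the 10 enzymes, which are the only transcript sequence in the files. They were in 0 of the 14 probes for each miRNA, beside 0.747% of all probes for miR-629-3p, 0.131% for miR-210-3p and 0.387% for miR-874-3p. The probes cover only short stretches of each transcript, so this count covers those stretches alone. With shares this low, 14 probes are too few for the count to say whether the enzymes are targets.

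All 8 arrays lay on 1 slide, with the groups of miR-210-3p and miR-629-3p in row 1 and those of NC and miR-874-3p in row 2. Between 41.8% and 49.8% of probes were well above background on an array, with the lowest shares on the NC arrays. No spot was saturated. Of the squamous epithelial markers, 7 of 7 were well above background on all 8 arrays, and their summed signal ranged from 574 to 611 times the 75th percentile with NC, from 492 to 495 under miR-629-3p, from 418 to 424 under miR-210-3p and from 528 to 595 under miR-874-3p. Of 7 fibroblast markers, DCN, LUM, COL3A1 and PDGFRA were not well above background on any array, and the list's summed signal was between 1.13 and 2.87 on every array. The summed signal of 3 leukocyte markers on the array was between 0.316 and 0.909, and that of 4 endothelial markers was between 2.53 and 2.75 with miR-629-3p and between 1.32 and 1.83 on the other 6 arrays. Against NC, limma called KRT14, KRT17 and FAP lower and PDGFRB and VWF higher under miR-629-3p. Of all genes, 7.47% were called lower and 9.28% higher in that comparison. Under miR-210-3p, 4 of 7 epithelial markers were called lower and 1 of 3 tested fibroblast markers higher, beside 2.2% and 3.85% of all genes. The part of these markers and of the slide row in the changes of the enzymes was not tested. As whole populations of cells were lysed, fewer cells with a transcript and less of it per cell cannot be told apart.

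Signals are given as log2 of the background-subtracted intensity relative to the 75th percentile of the same array, so a difference of 1 is a 2-fold change. All 10 enzymes passed the detection filter, as did 21283 genes in all, and 13 of the 14 probes were well above background on all 8 arrays. The exception was the dimmer PLOD1 probe, which reached that level on 4 arrays. A level of one gene's probe is not comparable with that of another gene, and only differences between groups for the same probe are given. A gene was called at a limma p under 0.05 after Benjamini-Hochberg adjustment over all 21283 genes. Where genes are counted at an unadjusted p under 0.05 alone, the share over all genes was not computed. Such counts cannot be set against a background.

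**Figure D1:**
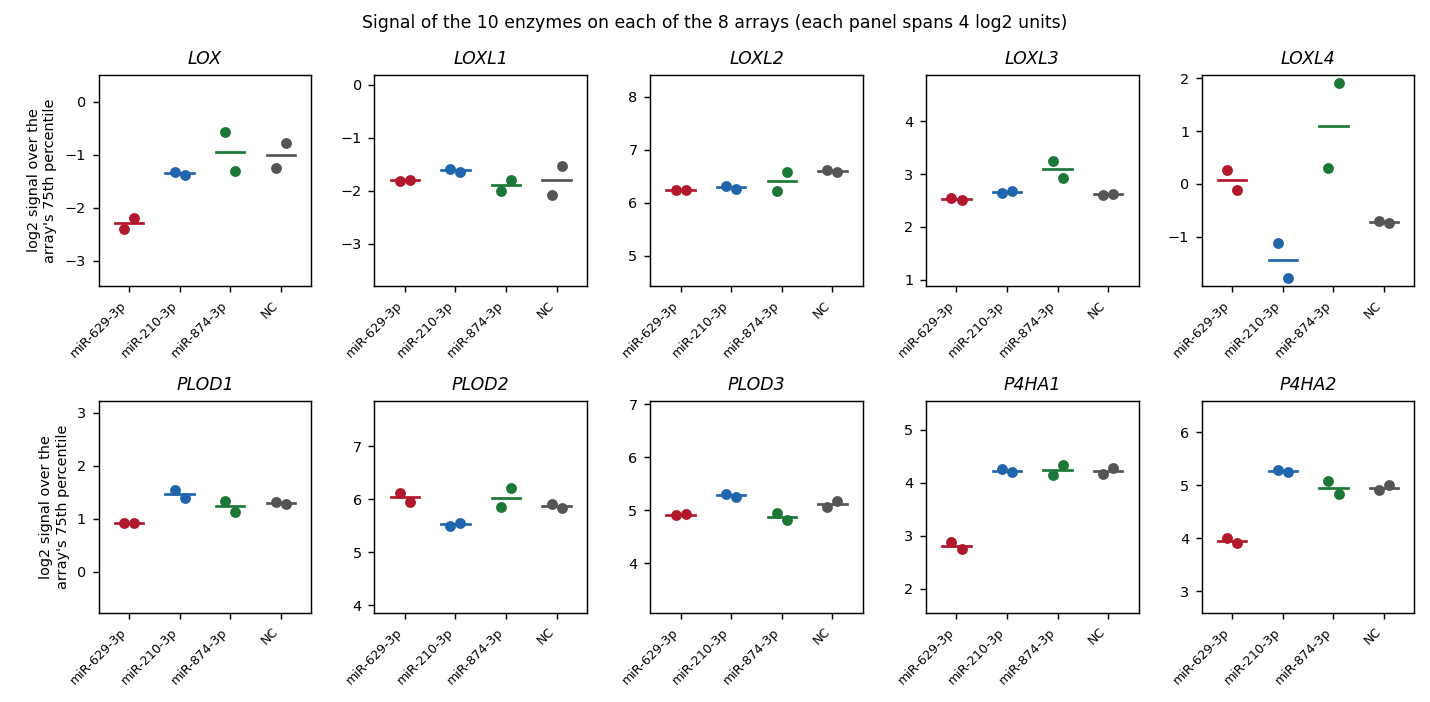
Log2 signal of each enzyme relative to the 75th percentile of the array (vertical axis) in the 4 groups (horizontal axis). Points are the 2 arrays of a group and lines are their means. Both miR-629-3p points lie below the other 6 in the panels of LOX, LOXL3, PLOD1, P4HA1 and P4HA2, and the 2 miR-874-3p points of LOXL4 lie 1.61 apart.

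The clearest changes were those of the prolyl 4-hydroxylase subunits in miR-629-3p-transfected cells. P4HA1 encodes a catalytic alpha subunit of the enzyme, which works as a tetramer with protein disulfide isomerase. Its log2 signal was 4.16 and 4.29 with NC, 2.88 and 2.75 under miR-629-3p, 4.26 and 4.21 under miR-210-3p and 4.16 and 4.35 under miR-874-3p. Both miR-629-3p arrays were thus far below the other 6, whose values lay within 0.19 of each other. P4HA1 fell 2.66-fold against NC (log2 fold change -1.41, SE 0.10, limma adjusted p = 0.00308), and only 1.09% of all genes had a fitted change at or below that.

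P4HA2 encodes the other widely expressed alpha subunit and was read by 3 probes. On the brightest, the log2 signal was 4.90 and 5.00 with NC, 4.004 and 3.91 under miR-629-3p, 5.28 and 5.25 under miR-210-3p and 5.08 and 4.83 under miR-874-3p. Again both miR-629-3p arrays lay below all others, and the miR-210-3p arrays were the highest. P4HA2 fell 1.998-fold with miR-629-3p against NC (log2 fold change -0.999, SE 0.10, limma adjusted p = 0.00634).

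The 3 P4HA2 probes lie at chr5:131528308-131528367, chr5:131528679-131528738 and chr5:131549610-131549669 on hg19, on the minus strand, and the P4HA1 probe lies at chr10:74767083-74767142, also on the minus strand. When every probe was fitted separately, the P4HA2 probes changed by -0.999, -1.01 and -0.80 (log2) with miR-629-3p against NC, and each was called, beside 15.2% of all kept probes. The same probes changed by 0.31, 0.24 and 0.63 under miR-210-3p, and by 0.0032, 0.0097 and -0.0066 under miR-874-3p. The probes were read on the same arrays and are not separate replicates. Whether they read the same transcripts of the gene was not analysed.

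**Figure D2:**
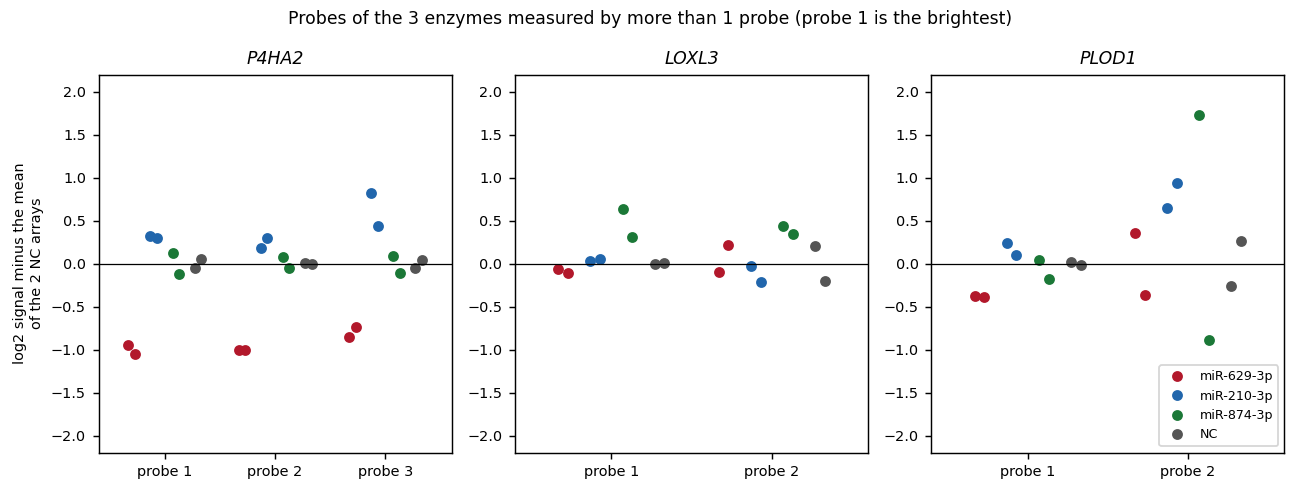
Log2 signal minus the mean of the 2 NC arrays (vertical axis) for each probe of P4HA2, LOXL3 and PLOD1 (horizontal axis, the brightest probe first). Each point is an array. On all 3 P4HA2 probes the miR-629-3p points lie well below 0, while the dimmer PLOD1 probe scatters widely with miR-874-3p, whose log2 signals were -1.52 and -4.13.

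LOX, the founding lysyl oxidase, was also lower with miR-629-3p. Its log2 signal was -1.24 and -0.78 with NC, -2.40 and -2.19 under miR-629-3p, -1.33 and -1.37 under miR-210-3p and -0.57 and -1.31 under miR-874-3p. Both miR-629-3p arrays lay below all others, while the miR-874-3p and NC arrays overlapped. LOX fell 2.44-fold against NC (log2 fold change -1.28, SE 0.27, limma adjusted p = 0.0324). This call was the least stable of the 3, since it was lost (limma adjusted p from 0.0515 to 0.148) when any one array of miR-629-3p, miR-210-3p or NC was left out, while the fall then ranged from -1.52 to -1.05. With normexp background correction, which compresses dim signals, the change was -0.41 with a limma adjusted p of 0.0343.

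LOX and LOXL2 were each printed as 10 spots per array, which separates the error of reading a spot from that between arrays. The LOX probe lies at chr5:121405786-121405845 on hg19, on the minus strand. The SD between LOX spots of an array was from 0.09 to 0.24, with 1 spot left out as an outlier on an miR-874-3p array. The highest LOX spot of the miR-629-3p arrays was at -1.69 and the lowest of the NC arrays at -1.59, so no spot overlapped between these groups. The means of the miR-874-3p arrays differed by 0.74, which is more than the spots of either array spread around their mean. For LOXL2, the SD between spots of an array was from 0.03 to 0.06. Its highest miR-629-3p spot was at 6.33 and its lowest NC spot at 6.49, so its spots did not overlap either, although LOXL2 was not called. Spots of an array are repeat readings of the same sample and not replicates of a group.

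**Figure D3:**
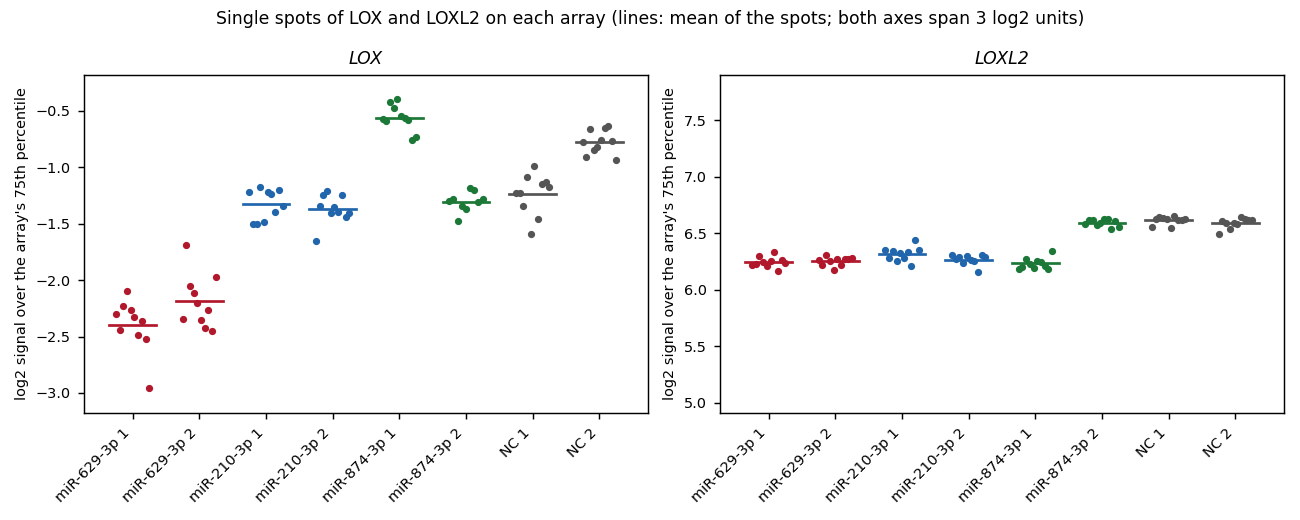
Log2 signal (vertical axis) of each spot of LOX and LOXL2 on each of the 8 arrays (horizontal axis), with the mean of the array's spots as a line. LOX spots of the miR-629-3p arrays all lie at or below -1.69, and the LOXL2 spots of an array lie close together.

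The other lysyl oxidases were not called with miR-629-3p. LOXL2, a family member with scavenger receptor domains that acts on type IV collagen, had a log2 signal of 6.61 and 6.59 with NC, 6.24 and 6.25 under miR-629-3p, 6.32 and 6.27 under miR-210-3p and 6.23 and 6.59 under miR-874-3p. All 6 arrays of the other groups were below both NC arrays, although the second miR-874-3p array, at 6.5917, was only just below the lower NC array, at 6.5918. The change was -0.35 with miR-629-3p (limma adjusted p = 0.109) and -0.31 with miR-210-3p (limma adjusted p = 0.19), and both had an unadjusted p under 0.05.

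LOXL3, which is needed for palate and skeletal development, had a log2 signal of 2.60 and 2.62 with NC, 2.55 and 2.51 under miR-629-3p, 2.64 and 2.67 under miR-210-3p and 3.25 and 2.92 under miR-874-3p. Its miR-874-3p arrays were the 2 highest. The difference between miR-874-3p and NC, which share a slide row, was 0.47 (SE 0.12, limma adjusted p = 0.152). On the dimmer LOXL3 probe it was 0.39.

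LOXL4, another amine oxidase of the family, had the widest range of group means among the 10 enzymes. Its log2 signal was -0.71 and -0.73 with NC, 0.26 and -0.11 under miR-629-3p, -1.11 and -1.77 under miR-210-3p and 0.30 and 1.91 under miR-874-3p. No array of miR-874-3p or miR-629-3p overlapped with an array of miR-210-3p or NC. The difference between miR-874-3p and NC was 1.82 (3.53-fold higher, 95% interval 0.50 to 3.13), but the limma adjusted p was 0.197. This value rests on both miR-874-3p arrays, since it was 2.62 without the first (limma adjusted p = 0.0274, a call) and 1.02 without the second (limma adjusted p = 0.174). LOXL1, which is known for maintaining elastic fibres, was between -2.08 and -1.54 on all 8 arrays, and these extremes were the 2 NC arrays.

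Of the lysyl hydroxylases, PLOD1 was the nearest to a call with miR-629-3p. PLOD1 encodes lysyl hydroxylase 1, which acts on lysines within the helix. Its log2 signal was 1.32 and 1.29 with NC, 0.92 and 0.92 under miR-629-3p, 1.54 and 1.40 under miR-210-3p and 1.34 and 1.13 under miR-874-3p. Both miR-629-3p arrays were the lowest, and the change against NC was -0.39 (SE 0.10, limma adjusted p = 0.0505). PLOD1 was called lower in 8 of 21 alternatives (adjusted p from 0.0272 to 0.183 by limma and the methods' t-test), among them normexp, quantile normalization and the fits without either miR-874-3p array, and the change ranged from -0.42 to -0.29. The dimmer PLOD1 probe gave -0.0027 (SD between its arrays from 0.20 to 1.85), so the probes differ and only the brighter was well above background throughout.

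PLOD2 encodes lysyl hydroxylase 2, which acts on the telopeptides and so directs which crosslinks form. Its log2 signal was 5.92 and 5.83 with NC, 6.12 and 5.96 under miR-629-3p, 5.50 and 5.56 under miR-210-3p and 5.85 and 6.22 under miR-874-3p. The miR-210-3p arrays were the lowest, and the miR-874-3p arrays overlapped with both the NC and the miR-629-3p arrays. Its change was -0.34 with miR-210-3p (limma adjusted p = 0.192) and 0.16 with miR-629-3p (95% interval -0.18 to 0.50). That interval does not reach the falls of P4HA1, P4HA2 and LOX.

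PLOD3 encodes lysyl hydroxylase 3, which also transfers sugars to hydroxylysine. Its log2 signal was 5.06 and 5.17 with NC, 4.91 and 4.92 under miR-629-3p, 5.31 and 5.25 under miR-210-3p and 4.94 and 4.82 under miR-874-3p. The miR-210-3p arrays were the highest and the NC arrays came next. Its changes against NC were -0.20 under miR-629-3p, 0.16 under miR-210-3p and -0.24 under miR-874-3p, at limma adjusted p-values of 0.138, 0.265 and 0.237.

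In all, 3 of the 10 enzymes were called with miR-629-3p against NC and all 3 were lower, beside 16.8% of all genes called in either direction and 7.47% called lower. At the study's cutoffs of an unadjusted p under 0.05 and at least a 2-fold change, LOX and P4HA1 passed, beside 5.26% of all genes. The p in this and the other counts at these cutoffs is that of limma, whereas the methods name Student's test. P4HA2 fell just short of 2-fold on its brightest probe. Both miR-629-3p arrays lay below both NC arrays for 7 of the 10, beside 30.5% of all genes. The median log2 fold change of the 10 was -0.28, beside 0.02 over all genes. Without either miR-874-3p array, whose replicates differ more than those of other groups, 5 of the 10 were called, while the share over all genes also rose, to 21.8% and 21.2%.

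With miR-210-3p against NC, 0 of 10 enzymes were called by limma, beside 6.05% of all genes, and LOXL2, PLOD2 and P4HA2 had an unadjusted p under 0.05. None passed the study's cutoffs with the limma p, beside 3.14% of all genes. P4HA2 was 1.24-fold higher on both arrays than on both NC arrays (log2 difference 0.31, limma adjusted p = 0.135). The 95% interval for P4HA1 was -0.24 to 0.25. With miR-874-3p against NC, 0 of 10 were called by limma, beside 0.423% of all genes, and LOXL3, LOXL4 and PLOD3 had an unadjusted p under 0.05. LOXL4 alone passed the study's cutoffs with the limma p, beside 2.02% of all genes. The 95% intervals with miR-874-3p were -0.22 to 0.27 for P4HA1, -0.25 to 0.26 for P4HA2 and -0.61 to 0.75 for LOX. These 3 comparisons share the NC arrays. Without the first or the second miR-874-3p array, 1 of the 10 was called with miR-210-3p, beside 2529 of 22012 and 2524 of 22593 genes in all, and 1 with miR-874-3p, beside 3.83% and 4.92%.

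**Figure D4:**
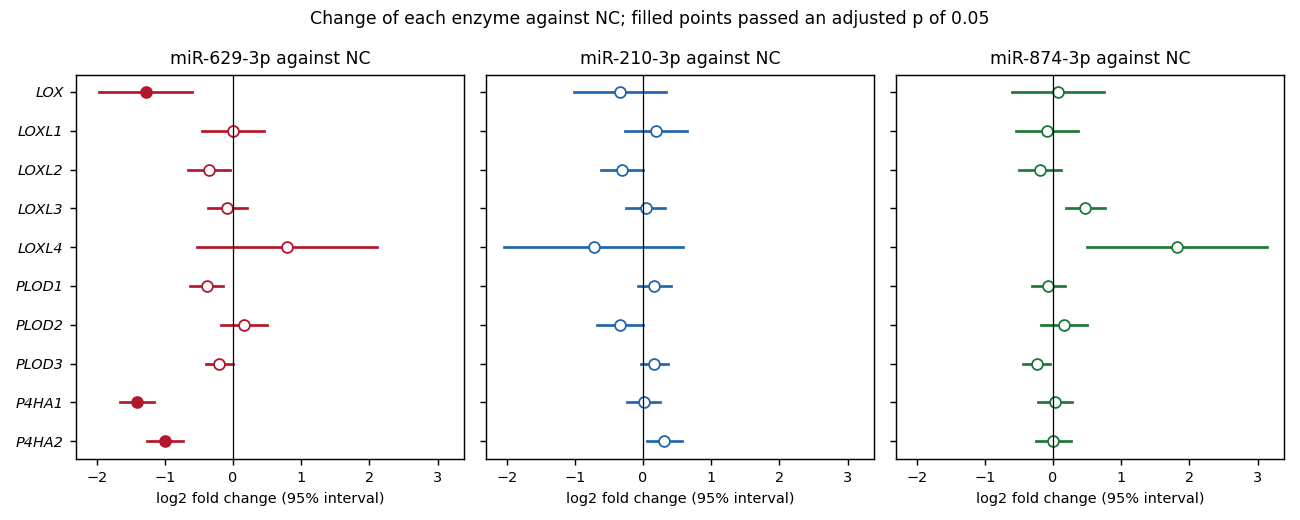
Log2 fold change against NC with its 95% interval (horizontal axis) for each enzyme (vertical axis) and miRNA. Filled points, at LOX, P4HA1 and P4HA2 with miR-629-3p, passed an adjusted p of 0.05, and the intervals of LOXL4 are the widest.

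The miRNAs were also compared with each other. miR-629-3p and miR-210-3p share slide row 1, and between them 4 of the 10 enzymes were called, beside 22.6% of all genes. All 4 were lower with miR-629-3p, beside 12.7% of all genes. They were P4HA1 (-1.42, limma adjusted p = 0.00238), P4HA2 (-1.31, limma adjusted p = 0.0032), PLOD1 (-0.55, limma adjusted p = 0.0162) and PLOD3 (-0.37, limma adjusted p = 0.0274). Against NC, which lies in the other slide row, P4HA1 and P4HA2 had changed by -1.41 and -0.999. LOX was lower by -0.94 with a limma adjusted p of 0.0597, so its difference between these miRNAs was not called. The count was 2 without any one array of miR-629-3p or miR-210-3p, where 6.70% to 8.03% of all genes were called, and 7 without either miR-874-3p array, where 24.9% and 26.5% were.

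Between miR-629-3p and miR-874-3p, 4 of the 10 were called, beside 16.2% of all genes, and all 4 were lower with miR-629-3p, beside 6.88%. LOX changed by -1.36 (limma adjusted p = 0.0282), LOXL3 by -0.56 (limma adjusted p = 0.0301), P4HA1 by -1.43 (limma adjusted p = 0.0027) and P4HA2 by -1.002 (limma adjusted p = 0.00625). The count was 2 without any one array of miR-629-3p or miR-210-3p, where 5.00% to 7.62% of all genes were called. Between miR-210-3p and miR-874-3p, 2 of the 10 were called, beside 9.8% of all genes. LOXL4 was 5.83-fold lower with miR-210-3p (limma adjusted p = 0.0427) and PLOD3 was higher by 0.40 (limma adjusted p = 0.0382). This count was 0 without any one array of miR-629-3p, miR-210-3p or NC, beside 2.11% to 4.76% of all genes, and 4 without the first miR-874-3p array, beside 15.6%.

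Across the 4 groups together, the moderated F test of limma called LOX, PLOD1, PLOD3, P4HA1 and P4HA2, which is 5 of 10, beside 25.2% of all genes. The count was 2 without any one array of miR-629-3p, miR-210-3p or NC, beside 5.21% to 18.8% of all genes, and 8 without either miR-874-3p array, beside 30.6% and 31.3%. Both miR-629-3p arrays were below the other 6 for 5 of the 10 enzymes, beside 16.3% of all genes. For these enzymes the median difference between the 2 arrays of a group was 0.09 with NC, 0.07 under miR-629-3p, 0.05 under miR-210-3p and 0.29 under miR-874-3p.

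**Figure D5:**
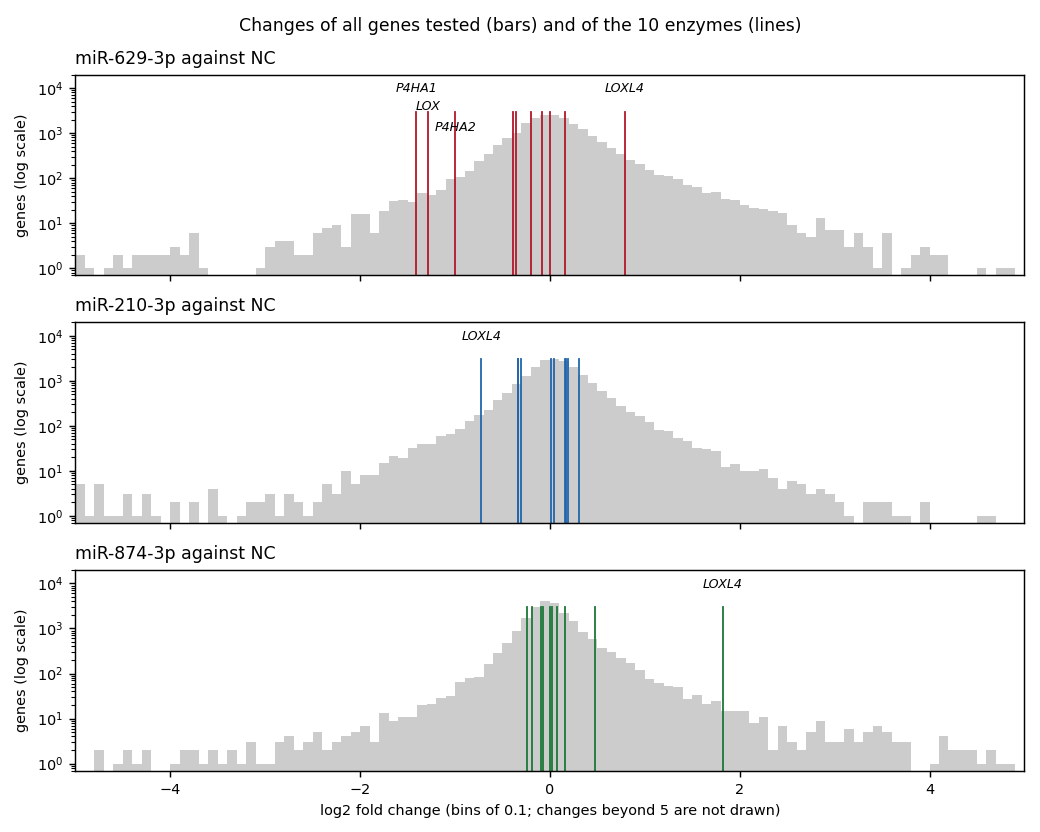
Number of genes (vertical axis, log scale) by log2 fold change against NC (horizontal axis, bins of 0.1) for each miRNA, with the 10 enzymes as coloured lines. With miR-629-3p, P4HA1, LOX and P4HA2 stand in the lower tail at -1.41, -1.28 and -0.999, and with miR-874-3p LOXL4 stands in the upper tail at 1.82.

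The partners of these enzymes in the endoplasmic reticulum were counted next. Of 14 other genes for procollagen hydroxylation, glycosylation and folding, 11 were tested, and with miR-629-3p 3 fell and 0 rose, beside 7.47% of all genes called lower and 9.28% called higher. P3H2, a prolyl 3-hydroxylase, fell by 0.56 (log2, limma adjusted p = 0.0256). COLGALT1, which adds galactose to hydroxylysine, fell by 0.43 (limma adjusted p = 0.0429), and PPIB, a prolyl isomerase that works with the prolyl 3-hydroxylase complex, fell by 0.35 (limma adjusted p = 0.0274). The list's median was -0.21, beside 0.02 over all genes. With either of the other miRNAs, 0 of the 11 were called by limma, while 4 with miR-210-3p and 2 for miR-874-3p had an unadjusted p under 0.05. The count with miR-629-3p was also 0 when any one array of miR-629-3p, miR-210-3p or NC was left out, where 4.73% to 11.7% of all genes were called.

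Of 6 genes for procollagen secretion, 5 were tested, and 1 fell with miR-629-3p, beside 7.47% of all genes called lower and 9.28% called higher. It was KLHL12, an adaptor of the ubiquitin ligase that enlarges transport carriers for collagen (-0.35, limma adjusted p = 0.0396). The same shares stand beside the miR-629-3p calls in the processing list and the partner and copper list. Of 8 genes for procollagen processing, only 3 were tested, and PCOLCE2, an enhancer of the C-proteinase, fell by 0.61 (limma adjusted p = 0.0207). Of 9 genes for lysyl oxidase partners and copper supply, 7 were tested. SLC31A1, the copper importer, rose by 0.47 with miR-629-3p (limma adjusted p = 0.0425), while EFEMP2, the fibulin that ties LOX to elastin, fell by 0.86 (limma adjusted p = 0.0164). With miR-210-3p the call was FBLN5, an elastic fibre fibulin, which was 2.64-fold higher (limma adjusted p = 0.0179). Over all genes, 3.85% were called higher and 2.2% lower with miR-210-3p. None of the genes in these 3 lists was called by limma with miR-874-3p, beside 0.423% of all genes. At an unadjusted p under 0.05 there were 1 secretion, 0 processing and 1 partner or copper gene, without a share over all genes. KLHL12 was no longer called without any one array of miR-629-3p, miR-210-3p or NC, and FBLN5 without any one array of miR-629-3p or miR-210-3p. PCOLCE2 lost its call without either miR-629-3p array or the first NC array, and SLC31A1 and EFEMP2 were both lost without the first miR-629-3p or the second NC array.

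Several of the collagens on which the enzymes act were also lower with miR-629-3p. Of 12 collagen and elastin genes, 10 were tested, 6 fell and 0 rose, beside 7.47% of all genes called lower and 9.28% called higher. The list's median was -0.66, beside 0.02 over all genes. COL1A1, COL6A2, COL7A1 and ELN were not called. COL4A1, a basement membrane collagen chain, fell 2.72-fold (limma adjusted p = 0.00232) and COL5A1, a chain of a fibril-regulating collagen, fell 2.28-fold (limma adjusted p = 0.00336). With miR-210-3p the call was COL4A2, which fell 2.49-fold (limma adjusted p = 0.00573), beside 2.2% of all genes called lower. With miR-874-3p 0 of the 10 were called by limma, beside 0.423% of all genes. There, 4 had an unadjusted p under 0.05, without a share over all genes. Without any one array of miR-629-3p, miR-210-3p or NC, 4 or 5 of the 10 were called with miR-629-3p, beside 4.73% to 11.7% of all genes. COL1A1 was well above background on 6 arrays only, and on neither NC array.

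Since several of the enzymes are known HIF-1 targets, 12 other hypoxia-inducible genes were set beside them, and all 12 were tested. Whether HIF-1 took part in any of these changes was not tested. With miR-629-3p 9 fell and 1 rose, beside 7.47% of all genes called lower and 9.28% called higher. The list's median was -1.17, the same with CA9 taken at its bound, beside 0.02 over all genes. CA9, a carbonic anhydrase, was not well above background on either miR-629-3p array and its fall against NC was at least 9.80-fold (limma adjusted p = 0.0107). ANGPTL4, a secreted inhibitor of lipoprotein lipase, fell 13.2-fold (limma adjusted p = 0.000825), and NDRG1, a stress-responsive gene, fell 2.87-fold (limma adjusted p = 0.00575). Leaving out any one array of miR-629-3p, miR-210-3p or NC left 8 of the 12 called, beside 4.73% to 11.7% of all genes. VEGFA, the angiogenic growth factor, went the other way and rose 1.36-fold (limma adjusted p = 0.0192).

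With miR-210-3p, 2 of the 12 fell and 1 rose, beside 2.2% of all genes called lower and 3.85% called higher, with a median of -0.37 beside 0.05 over all genes. NDRG1 fell 2.04-fold (limma adjusted p = 0.0242) and ADM, the peptide hormone adrenomedullin, fell 1.93-fold (limma adjusted p = 0.00976), while VEGFA rose 1.34-fold (limma adjusted p = 0.0408). P4HA1 did not share these falls, with 4.26 and 4.21 beside 4.16 and 4.29 for NC. These calls were fewer (1 of 12) without any one array of miR-629-3p or miR-210-3p, or without the second NC array, and more (5 of 12) without either miR-874-3p array. The share of all genes called was 0.683% to 5.12% in the former fits and at least 11.2% in the latter. With miR-874-3p, 0 of the 12 were called by limma, beside 0.423% of all genes. The median was 0.18, beside -0.0058 over all genes, and 4 had an unadjusted p under 0.05, without a share over all genes.

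The promoters are shown because several of the enzymes are known HIF-1 targets, and the HIF-1 complex binds a short core. RefSeq promoters on GRCh38.p14, from 250 bases before to 50 after a start site, were held for 9 of the 10 enzymes. The core ACGTG was searched on both strands, so that CACGT on the printed strand is also a match. It was in 21.4% of all 35116 promoters. Counted by gene, with a match in any of its promoters, it was in 24.9% of 27305 genes and in 3 of the 9 enzymes, namely LOX, which has 3 promoters in the table, PLOD2 and P4HA1. P4HA2 had no match in its window, and PLOD2 had 2. A match is a sequence description and not a site of binding, and the part of HIF-1 in the changes was not tested. The windows are written on the strand of the gene, with the match in capitals.
P4HA1 (chr10:73096938-73096962, minus strand): tgatcgagctCACGTagcgagggct
LOX (chr5:122078430-122078454, minus strand): tccctgtgcaACGTGtctgggggga
LOX (chr5:122078287-122078311, minus strand): aactttgcaaACGTGccagaaagtt
The upstream LOX promoter held 4 matches, of which the outermost are printed, and the P4HA1 promoter held 1. The matches in the other LOX promoters and in PLOD2 are not printed. With GCGTG counted as well, 52.4% of genes had a match in a promoter, as did 5 of the 9 enzymes.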

How the data were processed

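For each array the authors deposited Agilent Feature Extraction 11.5.1.1 output, whose intensity is the background-subtracted processed signal, and a table of log2 values, which equalled the scanner values after a constant offset (all probes within 0.05). Outlier-flagged spots (87 to 346 of 60901 an array) were left out, log2 signals were scaled to the array's 75th percentile, and the spots of a probe were averaged. Probes without a missing value that exceeded background clearly in some group, on each of its 2 arrays, were retained (27303 probes). The brightest kept probe of a gene was used. Comparisons used limma 3.58.1 in R 4.3.3 (lmFit, eBayes), fitted to all 8 arrays without covariates (4 residual and 1.68 prior degrees of freedom). The fit was tested on simulated data with known changes between miR-629-3p and NC. It called 51 of 100 genes with a log2 change of 1 and 79 of 100 with a change of 2, with 7 false calls. A gene that was not called may therefore still have changed. The number of arrays limits the precision. The methods name Student's test and ANOVA, which were run as alternatives.

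The enzymes and gene lists were chosen with earlier results of these data known. Named genes are all 10 enzymes and, per list and comparison with NC, called genes of at least 2-fold (up to 3 in each direction) or all where 5 or fewer were called. Coordinates of probes are those of the array annotation (hg19). The exon or UTR of each probe was not analysed here.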

Additional observations from a re-analysis of the deposited data

How the results depend on the processing

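P4HA1 and P4HA2 kept their limma call with miR-629-3p against NC in 20 of 21 alternatives (-1.47 to -1.33 and -1.05 to -0.94) and lost it with the methods' t-test, after Benjamini-Hochberg adjustment. LOX kept its call in 13 of 21 (-1.52 to -0.41). The cause of each change below was not tested. The methods' t-test called 0 of all 21283 genes with miR-629-3p against NC after adjustment, so its loss there held for every gene. For miR-629-3p it called 0 enzymes against NC and 0 against miR-874-3p, beside 0% of all genes in both. Against miR-210-3p it called 2, beside 5.91%. Between miR-210-3p and miR-874-3p it called 0, beside 0.0141%, and ANOVA called 3 across groups, beside 16.6%. List genes called against NC were 0 for miR-629-3p and 0 for miR-210-3p, beside 0% and 0.0047% of all genes. In the order miR-629-3p against NC, against miR-210-3p, miR-210-3p against miR-874-3p and all groups, eBayes with trend gave 5, 7, 5 and 8. The shares of all genes called were 22.8%, 28.7%, 16% and 35.6% in that order. Without the detection filter, 2 were called for miR-629-3p against miR-210-3p, beside 3.59% of all genes. The counts were 0 for miR-210-3p against miR-874-3p, beside 0.645%, and 2 across groups, beside 18.6%. For miR-210-3p against miR-874-3p, detection on all arrays gave 4, beside 15.5%, and quantile normalization 1, beside 9.09%. Normexp gave 8 across groups, beside 33.5%. Fits of only the 2 groups gave 7 (miR-629-3p against miR-210-3p), 1 (against miR-874-3p) and 0 (miR-210-3p against miR-874-3p). In that order, 28.2%, 1.26% and 0.0705% of all genes were called.

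The replicate number as a block gave 2 for miR-629-3p against miR-874-3p, 0 for miR-210-3p against miR-874-3p and 2 across groups. The shares of all genes were 9.54%, 3.7% and 12.2% in that order. The block ended the LOX call against NC (limma adjusted p = 0.0661) and gave 3 list genes with miR-210-3p, beside 2.31% of all genes. Same-numbered arrays did not deviate together (correlations -0.11 to 0.03). List genes called with miR-210-3p, 5 in the main analysis, numbered 16 with normexp, 1 without the filter and 10 with detection on all arrays. They numbered 8 with a floor, 2 with only the 2 groups and 18 with trend. From the main analysis on, in that order, 6.05%, 11.3%, 0.108%, 11.1%, 7.17%, 0.827% and 11.8% of all genes were called. With miR-874-3p normexp and trend each gave 1, beside 1.56% and 2.33%.

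With 1 array left out, called enzymes ranged from 2 to 5 for miR-629-3p against NC, 0 to 1 for miR-210-3p, 0 to 1 for miR-874-3p, 2 to 7 for miR-629-3p against miR-210-3p, 2 to 5 against miR-874-3p, 0 to 4 for miR-210-3p against miR-874-3p and 2 to 8 across groups, and list genes from 12 to 23, 2 to 10 and 0 to 1.

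Uncalled changes near 0 turned sign. LOXL1 with miR-629-3p was -0.022 with normexp and -0.031 when centred on the median; with miR-210-3p, P4HA1 was -0.048 with quantile normalization and -0.036 when centred, and LOXL3 -0.0019 when centred; P4HA2 with miR-874-3p was -0.00065 when centred. With 1 array left out, the ranges that crossed 0 were -0.27 to 0.27 for LOXL1 with miR-629-3p, -0.079 to 0.46 for LOXL1 and -0.055 to 0.069 for P4HA1 with miR-210-3p. For miR-874-3p they were -0.30 to 0.44 for LOX, -0.36 to 0.18 for LOXL1, -0.18 to 0.037 for PLOD1, -0.025 to 0.34 for PLOD2, -0.070 to 0.12 for P4HA1 and -0.12 to 0.13 for P4HA2. Dropping the filter moved the median of all genes to -0.17, -0.11 and -0.091 (log2) against NC. A slide block was not run, since there is 1 slide.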
